A study of Mus musculus with 8 samples.

Results

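The genes described here are 10 members of 2 cell guidance systems, chosen by name: the Slit ligands Slit2 and Slit3, their receptors Robo1 and Robo2, the class 3 semaphorins Sema3a, Sema3c and Sema3d, the neuropilin co-receptors Nrp1 and Nrp2, and the plexin receptor Plxnd1. All 10 were found among the 49315 genes of the count files and all 10 passed the filter on low counts, as did 16372 genes in all. The libraries came from whole mouse hearts late in gestation (E18.5). In 4 of them both copies of the chromatin remodeller gene Chd4 carried the M195I change (genotype CHD4 M195I/M195I, called mutant here), and the other 4 were wild type (WT), with no other allele or treatment named in the labels. The column headers of the files mark every library as male, and neither litter nor batch is named, so p-values measure the spread between these samples. The deposited values were raw read counts, totalling between 18673488 and 21341235 per mutant library and between 18375951 and 20815388 per WT library.

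Slit proteins are secreted and bind Robo receptors, which carry immunoglobulin domains and steer cell movement by repulsion. Class 3 semaphorins are secreted too and signal through complexes of a neuropilin, which binds the ligand, and a plexin, which carries the signal into the cell. In the mouse heart, Robo1 and Slit3 are known for roles in the ventricular septum and the caval veins. Sema3c, with Nrp1 and Plxnd1, is known for outflow tract septation, Sema3a for the pattern of cardiac sympathetic nerves and Sema3d for the position of the pulmonary veins. Nrp1 and Nrp2 also bind vascular endothelial growth factors on vessels.

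Robo1, Sema3a and Nrp1 rose in the mutant hearts, and no member fell. The gains were small, at 1.32-fold for Robo1, 1.23-fold for Sema3a and 1.13-fold for Nrp1. The related genes Robo2 and Nrp2 did not pass the test. Their ratios to Robo1 and Nrp1 were lower in every mutant library than in any WT library, which partly restates those gains. The tests were edgeR's quasi-likelihood tests over all 16372 genes, with a call at a Benjamini-Hochberg adjusted p under 0.05. By that rule 3 of the 10 members were higher, where 5.75% of all tested genes were higher. The members were chosen with earlier results of these data known, so this count is not independent of the data. Scaled by library totals instead, edgeR called 11.3% of all tested genes higher and 5.24% lower, and the same 3 members higher. None of the 10 was lower, with edgeR, DESeq2 or limma-voom or at an unadjusted edgeR p under 0.05, where edgeR called 7.49%, DESeq2 7.52% and limma-voom 6.96% of all tested genes lower. The median log2 fold change of the members was 0.13, beside 0.00 over all tested genes. Each of the calls on Robo1 and Sema3a was lost when 1 of several libraries was left out, and the values without them stand beside each gene. With Xist as a covariate, at 1.55 to 1.98 CPM in mutant and 1.25 to 1.56 CPM in WT libraries, a fit added after the data were seen, none of the 3 calls was kept in edgeR (adjusted p = 0.37 for Robo1, 0.15 for Sema3a and 0.24 for Nrp1). The log2 fold changes in that fit were 0.40 ± 0.18 for Robo1, 0.44 ± 0.14 for Sema3a and 0.20 ± 0.08 for Nrp1. Over all tested genes that fit called 107 higher and 134 lower, against 942 and 1226 in the main fit. Xist leaned with genotype, so the fit cannot cleanly separate the 2.

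To show the sequences at the starts of the genes that rose and of their related receptors that were not called, windows from 250 bases before to 50 bases after the annotated start are printed 5′ to 3′ on the gene's strand, from RefSeq on GRCm38.p6, with each CG dinucleotide in capitals. They lie at chr16:72662899-72663198 (plus strand, Robo1), chr16:74411776-74412075 (minus strand, Robo2), chr5:13396534-13396833 (plus strand, Sema3a), chr8:128358823-128359122 (plus strand, Nrp1) and chr1:62703067-62703366 (plus strand, Nrp2).
Robo1: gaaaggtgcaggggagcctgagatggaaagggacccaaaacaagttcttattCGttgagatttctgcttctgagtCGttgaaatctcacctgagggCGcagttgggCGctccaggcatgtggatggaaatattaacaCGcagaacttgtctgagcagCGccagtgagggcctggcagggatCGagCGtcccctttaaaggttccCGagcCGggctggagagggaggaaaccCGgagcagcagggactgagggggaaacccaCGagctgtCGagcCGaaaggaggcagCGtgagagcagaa
Robo2: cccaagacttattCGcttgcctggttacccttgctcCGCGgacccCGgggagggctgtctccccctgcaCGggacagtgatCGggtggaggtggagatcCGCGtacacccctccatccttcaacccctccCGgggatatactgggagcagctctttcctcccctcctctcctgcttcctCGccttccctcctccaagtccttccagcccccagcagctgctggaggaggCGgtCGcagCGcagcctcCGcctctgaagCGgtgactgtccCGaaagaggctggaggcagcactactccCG
Sema3a: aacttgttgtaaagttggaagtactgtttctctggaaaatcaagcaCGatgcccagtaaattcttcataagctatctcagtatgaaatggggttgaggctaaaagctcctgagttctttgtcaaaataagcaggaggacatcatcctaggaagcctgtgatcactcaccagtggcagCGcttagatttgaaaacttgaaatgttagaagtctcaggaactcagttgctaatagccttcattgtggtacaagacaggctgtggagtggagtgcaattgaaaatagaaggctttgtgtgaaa
Nrp1: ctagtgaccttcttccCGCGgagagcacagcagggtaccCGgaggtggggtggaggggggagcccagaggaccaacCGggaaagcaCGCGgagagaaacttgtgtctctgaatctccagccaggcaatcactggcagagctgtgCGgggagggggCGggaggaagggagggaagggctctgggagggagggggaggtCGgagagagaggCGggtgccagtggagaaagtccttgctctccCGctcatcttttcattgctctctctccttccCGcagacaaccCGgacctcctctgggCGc
Nrp2: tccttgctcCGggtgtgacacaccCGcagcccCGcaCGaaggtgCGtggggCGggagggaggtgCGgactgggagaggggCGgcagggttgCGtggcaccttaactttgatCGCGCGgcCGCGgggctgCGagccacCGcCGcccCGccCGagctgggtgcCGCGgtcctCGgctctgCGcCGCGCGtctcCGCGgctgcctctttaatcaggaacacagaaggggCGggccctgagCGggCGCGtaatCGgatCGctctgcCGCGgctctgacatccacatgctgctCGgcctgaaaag
Windows were matched for all 10 members, 12 in all, since Robo2 has 3. The one printed is the Robo2 window whose start, 74411825, is the upstream end of the Robo2 model in the count files. In those files, on GRCm38, Robo1 spans chr16:72663149-73046095, Sema3a chr5:13125414-13602565 and Nrp1 chr8:128358604-128503363. The models of Sema3a and Nrp1 therefore begin upstream of the printed starts, which are 13396784 for Sema3a and 128359073 for Nrp1. The Sema3a start lies deep inside its model, and whether the counted RNA begins there was not tested.

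The windows differed widely in CG content among the genes that rose. That of Sema3a, at a start deep inside its counted model, held 2 CG dinucleotides and 41.3% G or C. That of Nrp1 held 14 and 64.0%, and that of Robo1 held 15 and 57.0%. The Nrp2 window held 37 CG dinucleotides and 70.7% G or C, and the Robo2 window 17 and 65.0%. Over the 32851 windows of this length in the RefSeq table the median was 7 CG dinucleotides and 52.7% G or C. The GC box letters GGGCGG, which contain a CG, were searched on both strands and are found in 35.7% of all windows. Nrp1 had 1 match, at position 153 of the window, and Nrp2 had 5, while Robo1, Sema3a and the 3 Robo2 windows had none. Letters of cardiac factor motifs were searched on both strands as well. The T-box core AGGTGT, found in 13.7% of all windows, and the NKX2-5 core AAGTG, found in 46.4%, had no match in the Robo1, Sema3a or Nrp1 window, nor did the GATA letters AGATAA (11.2%) or the TATA letters TATAAA (13.6%). Of the other members, Sema3d had 1 T-box and 2 NKX2-5 matches, Sema3c 1 NKX2-5 match, an upstream Robo2 window 1 GATA match and Slit2 1 TATA match.

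The libraries also differed in airway RNA, which was not balanced between the genotypes. The airway secretoglobin Scgb3a2 ranged between 176 and 498 CPM of the library total (CPM are read counts scaled to library size) in mutant replicates 3 and 4 and WT replicates 1, 3 and 4, and between 0.328 and 6.48 CPM in mutant replicates 1 and 2 and WT replicate 2. Results for the members are therefore also given within each of these sets. The set without airway RNA has 1 WT library, which the fit takes to vary like the mutants beside it. Chd4 itself stood at 482 ± 8.48 CPM in mutant and 452 ± 6.37 CPM in WT hearts (SD, n = 4 each) and was not called (edgeR, adjusted p = 0.094), and gene counts cannot show the changed codon. Markers of heart muscle were abundant in every library. The sum of 5 cardiomyocyte markers lay between 28100 and 34100 CPM in mutant and between 34600 and 39300 CPM in WT hearts, with no overlap. In whole hearts, fewer cells of a type and less RNA per cell cannot be told apart. CPM of the members, and of all sums below, are scaled by TMM, edgeR's trimmed mean of M-values.

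Set per length of exon, as FPKM, here the scaled CPM divided by exon length in kilobases, the members spanned a wide range. Plxnd1, the receptor subunit, led with 49.2 ± 2.94 FPKM in mutant and 49.0 ± 2.37 FPKM in WT hearts (SD, n = 4 each, here and for the next levels). Nrp1 followed with 21.6 ± 1.03 FPKM in mutant and 19.1 ± 0.597 FPKM in WT hearts, and Slit3 with 12.2 ± 1.10 FPKM in mutant and 11.1 ± 1.55 FPKM in WT hearts. Nrp2 was at 5.92 ± 0.276 FPKM in mutant and 6.27 ± 0.269 FPKM in WT hearts. These first 4 genes kept the same order in both genotypes, and the libraries of neighbours in that order did not overlap within either genotype.

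A group of 3 genes lay close together below them. Robo1 was at 4.41 ± 0.468 FPKM in mutant and 3.36 ± 0.401 FPKM in WT hearts, Sema3d at 3.67 ± 0.278 FPKM in mutant and 3.38 ± 0.380 FPKM in WT hearts, and Sema3c at 3.50 ± 0.380 FPKM in mutant and 3.36 ± 0.501 FPKM in WT hearts. Their libraries overlapped in both genotypes, so that their order lies within the spread. By their means Robo1 was the highest of these 3 in the mutants and the lowest in WT. Slit2 (2.59 ± 0.380 FPKM in mutant, 2.07 ± 0.151 FPKM in WT hearts), Sema3a (1.20 ± 0.0946 FPKM in mutant, 0.974 ± 0.0797 FPKM in WT hearts) and Robo2 (0.387 ± 0.0791 FPKM in mutant, 0.429 ± 0.0457 FPKM in WT hearts) came last in both genotypes, with no overlap between neighbours. The exon length of Slit2 in the files is 25.4 kb and that of Slit3 is 6.07 kb, so the Slit2 level per length depends strongly on how much of its annotated exon is transcribed.

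**Figure D1:**
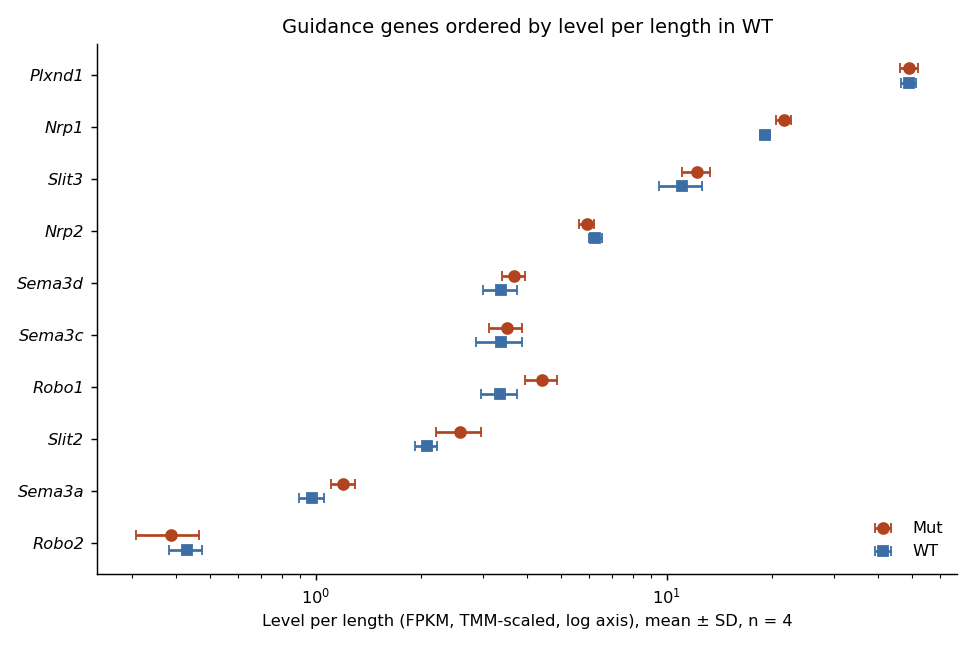
Levels of the 10 guidance genes per length of exon in FPKM on a log axis, ordered by the WT mean, with circles for mutant and squares for WT means and bars for the SD over 4 libraries. Plxnd1 is near 49 FPKM in both genotypes, and Robo2 is lowest near 0.4 FPKM. The mean of Robo1 stands above those of Sema3d and Sema3c in the mutants and level with them in WT, with overlapping libraries in both.

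Of the Slit ligands, neither passed the test. Slit2 was at 53.2, 76.6, 65.3 and 67.9 CPM in mutant replicates 1 to 4, against 57.0, 48.2, 51.1 and 54.2 CPM in WT replicates 1 to 4. Of the mutant libraries 3 were above every WT library, and mutant replicate 1 lay among the WT values. The log2 fold change was 0.32 ± 0.11 (standard error) with an adjusted p of 0.094 by edgeR. Without mutant replicate 1 it was 0.41 with an adjusted p of 0.0019, and DESeq2 put the difference of all 8 libraries past the threshold (0.33, adjusted p = 0.0067; DESeq2 called 5.75% of all tested genes higher). In the set with airway RNA, where 3.63% of tested genes were called higher, Slit2 was among them (0.30 ± 0.06, adjusted p = 0.0024), and in the set without it was not called (0.44 ± 0.40, adjusted p = 0.74).

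Slit3, the more abundant ligand per length, was at 80.9, 72.2, 77.2 and 65.4 CPM in mutant replicates, against 68.5, 54.0, 69.6 and 76.4 CPM in WT replicates. The genotypes overlapped widely, and WT replicate 2 was the lowest of all 8 libraries. Slit3 had a log2 fold change of 0.14 ± 0.11 (edgeR, adjusted p = 0.51), and without WT replicate 2 it was 0.05. In the set without airway RNA, where WT replicate 2 is the one WT library, 3.54% of tested genes were called higher and Slit3 passed (0.51 ± 0.09, adjusted p = 8.3e-06). In the set with airway RNA it stood at -0.01 ± 0.07 (adjusted p = 0.96).

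The receptor Robo1 rose. Its levels were 28.3, 36.3, 34.9 and 34.1 CPM in mutant replicates 1 to 4, against 24.0, 22.1, 26.3 and 29.2 CPM in WT replicates 1 to 4. Again 3 mutant libraries were above all WT libraries, and mutant replicate 1 lay just under WT replicate 4. This was a log2 fold change of 0.40 ± 0.10 with an adjusted p of 0.019 by edgeR. The call was lost without mutant replicate 3 (0.38, adjusted p = 0.054), mutant replicate 4 (0.39, adjusted p = 0.0505) or WT replicate 1 (0.37, adjusted p = 0.068). In the libraries with airway RNA Robo1 was called higher (0.38 ± 0.08, edgeR, adjusted p = 0.0048). In those without it the log2 fold change was 0.55 ± 0.13. The 1 WT library there is WT replicate 2, the lowest of all 8 libraries for Robo1.

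Robo2, the scarcest member, did not pass. It was at 6.18, 4.79, 6.60 and 7.96 CPM in mutant replicates, against 7.07, 6.04, 7.81 and 7.39 CPM in WT replicates, from 103 to 166 reads per library. The genotypes overlapped, and the lowest and the highest library were both mutant. The log2 fold change was -0.15 ± 0.14 (edgeR, adjusted p = 0.57), and it was -0.27 without mutant replicate 4, -0.10 without WT replicate 3 and -0.03 without mutant replicate 2. The RefSeq table holds 2 further starts of Robo2 upstream of the model in the count files, so reads of exons before that model are not in these counts.

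**Figure D2:**
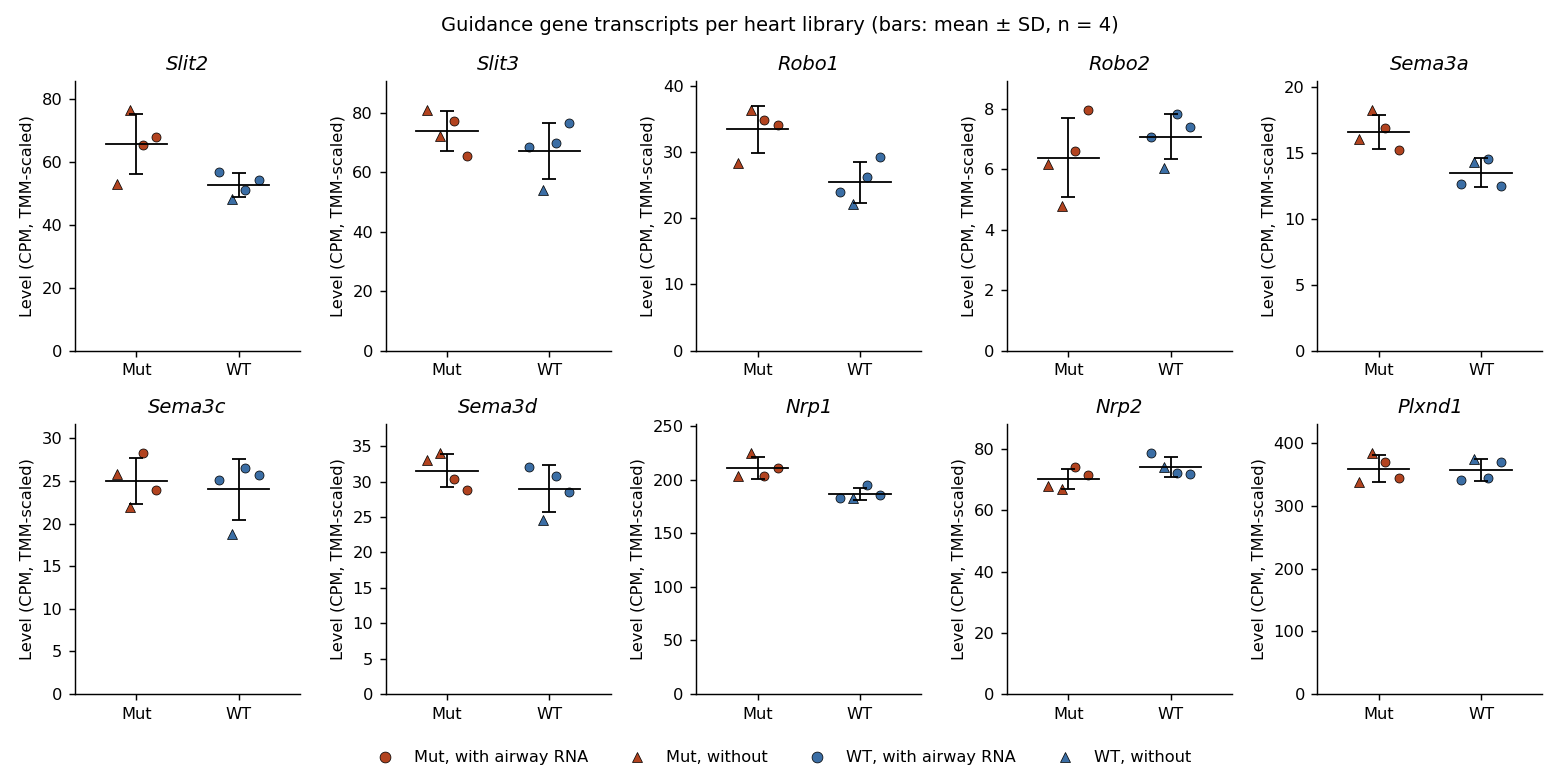
Level of each of the 10 genes in CPM scaled by TMM, 1 point per library, mutant left of WT, with bars for mean ± SD of 4 libraries; circles are libraries with airway RNA and triangles those without. Sema3a and Nrp1 are the panels in which every mutant point lies above every WT point.

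Among the class 3 semaphorins Sema3a rose. It was at 16.1, 18.3, 16.9 and 15.2 CPM in mutant replicates 1 to 4, against 12.6, 14.3, 14.6 and 12.5 CPM in WT replicates 1 to 4. Every mutant library lay above every WT library, a pattern seen in 8.8% of all tested genes. Sema3a had a log2 fold change of 0.30 ± 0.08 with an adjusted p of 0.025 by edgeR. The call was lost without mutant replicate 2 (0.25, adjusted p = 0.083), mutant replicate 3 (0.30, adjusted p = 0.058), WT replicate 1 (0.27, adjusted p = 0.083) or WT replicate 4 (0.26, adjusted p = 0.080). Within the sets Sema3a had the same size, 0.27 ± 0.15 without airway RNA and 0.27 ± 0.10 with it, and passed in neither (adjusted p = 0.30 and 0.11).

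Sema3c, the semaphorin of outflow tract septation, was at 25.8, 21.9, 28.3 and 23.9 CPM in mutant replicates, against 25.1, 18.7, 26.6 and 25.7 CPM in WT replicates. The genotypes overlapped, and WT replicate 2 was lowest. Its log2 fold change was 0.06 ± 0.12 (edgeR, adjusted p = 0.83), and it took the opposite sign without WT replicate 2 (-0.05) or mutant replicate 3 (-0.0008). Sema3d stood at 33.0, 34.0, 30.3 and 28.8 CPM in mutant replicates, against 32.1, 24.6, 30.8 and 28.6 CPM in WT replicates. Here too WT replicate 2 was lowest, and the other WT libraries lay among the mutants. The log2 fold change of Sema3d was 0.12 ± 0.08 (edgeR, adjusted p = 0.38) and 0.05 without WT replicate 2. Sema3d passed as higher in the set without airway RNA (0.45 ± 0.11, adjusted p = 0.0040) and stood at -0.05 ± 0.07 in the set with it (adjusted p = 0.75).

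Of the co-receptors, Nrp1 rose and had the smallest adjusted p of the 10 genes. Its levels were 203.3, 224.9, 203.8 and 211.3 CPM in mutant replicates 1 to 4, against 182.6, 182.9, 195.1 and 185.5 CPM in WT replicates 1 to 4. Every mutant library lay above every WT library, and the gap was narrow, since the lowest mutant and the highest WT library were 203.3 and 195.1 CPM. Nrp1 had a log2 fold change of 0.18 ± 0.04 with an adjusted p of 0.011 by edgeR, and the call held without any 1 of the 8 libraries (0.14 to 0.20, adjusted p from 0.011 to 0.045). Within the sets it was 0.14 ± 0.04 with airway RNA (edgeR, adjusted p = 0.054) and 0.23 ± 0.08 without it, where WT replicate 2 is the 1 WT library. The exons of Nrp1 hold the microRNA gene Mir1903, which had 0 reads on average in both genotypes. No exon of the other 9 members overlaps one of another gene in the files.

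Nrp2 was at 67.9, 67.0, 74.1 and 71.5 CPM in mutant replicates, against 78.7, 74.2, 72.1 and 71.9 CPM in WT replicates. The 2 lowest libraries were mutant replicates 1 and 2, and the others were mixed. Nrp2 had a log2 fold change of -0.08 ± 0.05 (edgeR, adjusted p = 0.28). Plxnd1 was at 338.9, 384.2, 369.9 and 344.0 CPM in mutant replicates, against 341.6, 375.4, 344.4 and 369.7 CPM in WT replicates. Its genotypes covered nearly the same range. The log2 fold change of Plxnd1 was 0.01 ± 0.05 (edgeR, adjusted p = 0.97), at a depth of 6279 to 8258 reads per library.

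The balance between related genes does not depend on how libraries are scaled to each other, and was read as the ratio of FPKM within each library, without a test. The size of a ratio depends on the exon lengths in the files, such as 16.5 kb for Robo2 and 7.56 kb for Robo1. Its log2 difference between genotypes does not. Robo2 over Robo1 was 0.100, 0.0604, 0.0867 and 0.107 in mutant replicates 1 to 4, against 0.135, 0.125, 0.136 and 0.116 in WT replicates 1 to 4. All mutant ratios were below all WT ratios, with a mean log2 difference of -0.56. The denominators Robo1 and, below, Nrp1 were called higher, so lower ratios partly restate those calls. How many other gene pairs separate was not tested. Nrp2 over Nrp1 was 0.276, 0.246, 0.300 and 0.280 in mutant replicates, against 0.356, 0.335, 0.305 and 0.320 in WT replicates. These ratios did not overlap either, by a narrow margin (0.300 in mutant replicate 3 and 0.305 in WT replicate 3), and the mean log2 difference was -0.26. Both differences kept their sign in the libraries with airway RNA (-0.42 for Robo2 over Robo1 and -0.17 for Nrp2 over Nrp1) and in those without (-0.69 and -0.36).

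The ratios between the ligands overlapped. Slit3 over Slit2 averaged 4.83 ± 1.13 in mutant and 5.34 ± 0.565 in WT hearts (SD, n = 4 each, here and for the next ratios). In CPM, not set per length, Slit3 and Slit2 were closer, with means of 73.9 and 65.8 in mutant and 67.15 and 52.6 in WT hearts. Sema3c over Sema3a averaged 2.94 ± 0.414 in mutant and 3.48 ± 0.658 in WT hearts, and Sema3d over Sema3a 3.07 ± 0.180 in mutant and 3.49 ± 0.559 in WT hearts. Sema3d and Sema3c were at near equal levels per length, with a ratio of 1.06 ± 0.168 in mutant and 1.01 ± 0.0795 in WT hearts.

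**Figure D3:**
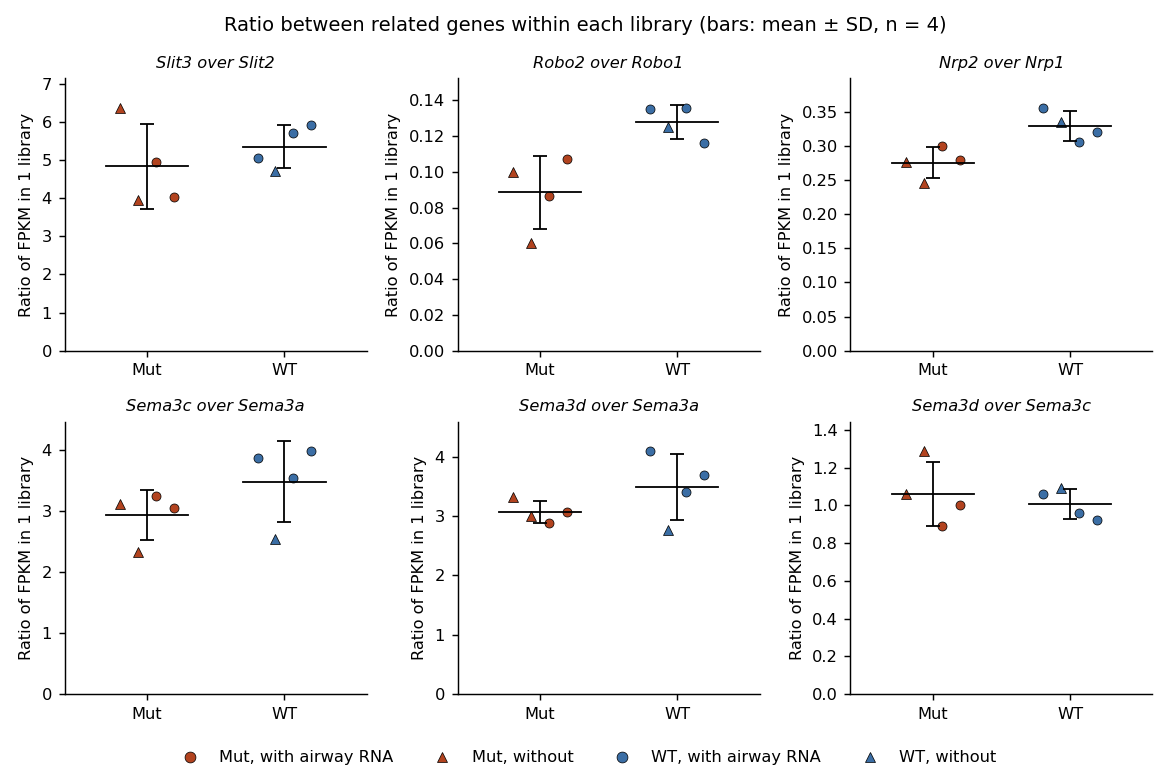
Ratio of the FPKM of 2 related genes within each library, mutant left of WT, with bars for mean ± SD of 4 libraries; circles are libraries with airway RNA and triangles those without. Robo2 over Robo1 and Nrp2 over Nrp1 separate the genotypes, with mutant means of 0.0886 and 0.276 and WT means of 0.128 and 0.329, and the other 4 ratios overlap.

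Within the genotypes the libraries were not alike. WT replicate 2 was the lowest of the 8 libraries for Slit2, Slit3, Robo1, Sema3c and Sema3d, and mutant replicate 2 was the highest for Slit2, Robo1, Sema3a, Sema3d, Nrp1 and Plxnd1. WT replicate 2 also had the lowest sum of 8 fibroblast and mesenchyme markers, 7372 CPM, where the mutants lay between 8030 and 8830 CPM and the other WT libraries between 8799 and 9781 CPM. Of these markers Tcf21 and Postn fell and the other 6 were not called. The part of this in the levels of Slit3, Sema3c and Sema3d was not tested. The genotype effect of a member was also compared between the libraries without and with airway RNA, in 1 edgeR model over all genes with an interaction term. Sema3d had the smallest p for a difference (0.49 ± 0.12, unadjusted p = 0.00075), then Slit3 (0.51 ± 0.13, unadjusted p = 0.0025), and neither passed after adjustment over 16372 genes (adjusted p = 0.26 and 0.41). Only 1 of the 16372 genes (0.00611%) passed in that model, where the set without airway RNA has 1 WT library. Not passing therefore does not show that the effects of the 2 sets are equal.

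**Figure D4:**
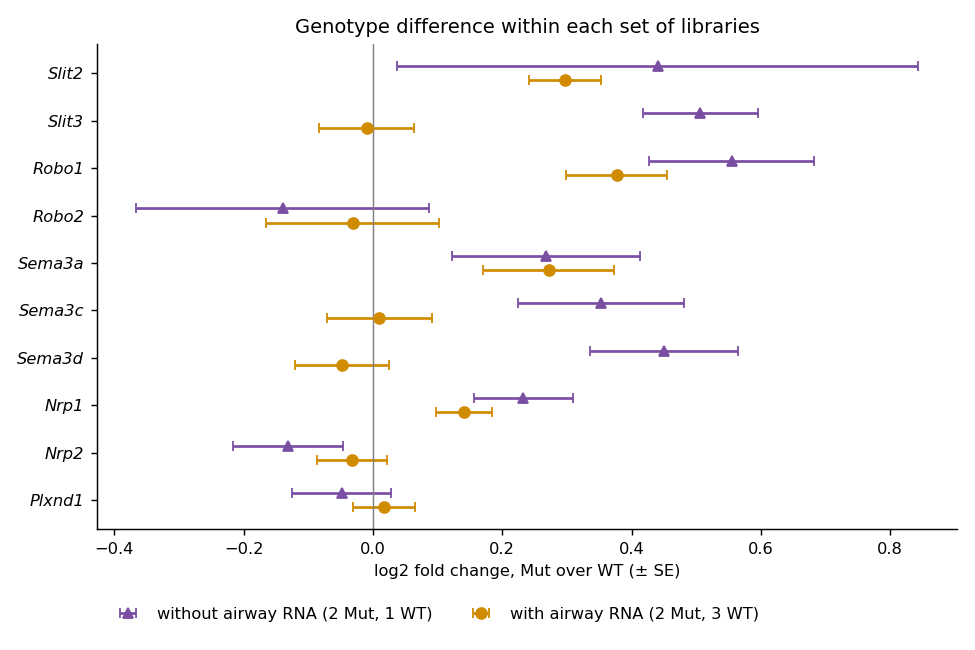
Log2 fold change of mutant over WT with its standard error for each of the 10 genes, fitted within the 3 libraries without airway RNA (triangles) and within the 5 with it (circles). Robo1, Sema3a and Nrp1 are positive in both sets, and Slit3, Sema3c and Sema3d are near 0 in the set with airway RNA.

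Markers of other cell types moved as well, in both directions. Nrp1 and Plxnd1 are known from endothelium, and of 8 endothelial markers Tek rose while Kdr and Esam fell. The sum of these 8 lay between 1160 and 1270 CPM in mutant and between 1200 and 1290 CPM in WT hearts, and the genotypes overlapped. Of 4 endocardial markers Nfatc1 fell and the other 3 were not called, with sums from 368 to 422 CPM in mutant and from 325 to 371 CPM in WT hearts. The epicardial list of 7 was split, with Tbx18 and Aldh1a2 higher and Upk1b, Msln and Lrrn4 lower, and sums of 248 to 318 CPM in mutant against 311 to 340 CPM in WT hearts. Of 8 smooth muscle and pericyte markers Acta2 and Cspg4 fell and the other 6 were not called. Their sums were 1180 to 1370 CPM in mutant against 1380 to 1540 CPM in WT hearts, with no overlap. Neuron markers (7 genes, 11.4 to 29.5 CPM in mutant and 12.4 to 28.3 CPM in WT hearts) and Schwann cell markers (5 genes, 32.3 to 41.5 CPM in mutant and 29.7 to 39.0 CPM in WT hearts) were scarce and not called. The neuron sums followed the airway sets, at 11.4 to 12.7 CPM without airway RNA and 22.7 to 29.5 CPM with it. Of 5 macrophage markers Lyz2 rose and the other 4 were not called, with sums of 61.2 to 80.7 CPM in mutant and 57.8 to 70.5 CPM in WT hearts. Of the erythroid markers 4 are given, which summed to 1140 to 1800 CPM in mutant and 1870 to 3570 CPM in WT hearts, with no overlap and a median log2 fold change of -0.88, and their adjusted p by edgeR lay between 0.077 (Hbb-bs) and 0.24 (Hbb-bt). Hbb-bs and Hbb-bt are near copies, so the split of reads between them is uncertain. Of the 5 cardiomyocyte markers Actc1 fell (-0.44 ± 0.06) and the other 4 were not called. The part of any of these cells in the differences of the members was not tested, and no marker in these lists was at 0 in every library.

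The rest of the pathway was read from a list of 58 other genes. They are semaphorins, plexins, netrins, netrin receptors, intracellular partners, Slit1, Robo3, Robo4, Flrt2, Flrt3 and the surface proteins Dag1, Gpc1 and L1cam. Of these, 52 were tested, and 10 rose and 2 fell. That is 19.2% and 3.85% of those tested, beside 5.75% higher and 7.49% lower among all tested genes. This list too was chosen with earlier results of these data known. The median log2 fold change of the 52 was -0.01, so the list as a whole was centred near 0, as were all tested genes. Slit1, Robo3, Sema4f, Ntn5 and Unc5d were left out by the filter on low counts, with at most 31 reads in any library, and Ntn3 was not analysed here.

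The smallest adjusted p in this list was that of Flrt2, a membrane protein that binds the netrin receptors of the Unc5 family. It stood at 67.6 ± 4.72 CPM in mutant and 43.8 ± 1.01 CPM in WT hearts (SD, n = 4 each), a log2 fold change of 0.63 ± 0.05 (edgeR, adjusted p = 6.7e-06). Flrt3, a relative that binds Robo1 as well in the mouse, rose too, at 11.0 ± 0.560 CPM in mutant and 7.72 ± 0.820 CPM in WT hearts (0.51 ± 0.09, edgeR, adjusted p = 0.0022). For both genes every mutant library was above every WT library, a pattern seen in 8.8% of all tested genes. Neither lost its call without any 1 library.

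Of the plexins, Plxnc1, the receptor of Sema7a, rose to 25.7 ± 2.66 CPM in mutant against 19.3 ± 1.15 CPM in WT hearts (0.41 ± 0.08, edgeR, adjusted p = 0.0022). Plxna3, a partner of the neuropilins, rose by 0.31 ± 0.09 (adjusted p = 0.033), a call lost without mutant replicate 1 or 4 or WT replicate 2 or 4 (adjusted p up to 0.091). The membrane semaphorin Sema6a rose by 0.32 ± 0.06 (adjusted p = 0.0042), and Sema5a, which carries thrombospondin repeats, by 0.25 ± 0.07 (adjusted p = 0.027). Sema5a lost its call without any 1 of 5 libraries, mutant replicates 1, 3 and 4 and WT replicates 1 and 3 (adjusted p up to 0.076). The secreted Sema3b fell to 27.6 ± 1.77 CPM in mutant against 34.8 ± 2.76 CPM in WT hearts (-0.33 ± 0.06, edgeR, adjusted p = 0.0033), with no overlap. Over all tested genes, 1600 of 16372 were lower in the mutants with no overlap. Sema4g fell as well (-0.43 ± 0.13, adjusted p = 0.046), a call lost without mutant replicate 2, 3 or 4 or WT replicate 1, 2 or 4 (adjusted p up to 0.14).

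Among the netrins and intracellular partners, Ntn4, a netrin that binds laminin in basement membranes, rose to 65.7 ± 2.77 CPM in mutant against 54.8 ± 2.65 CPM in WT hearts (0.26 ± 0.05, edgeR, adjusted p = 0.0020). The netrin receptor Unc5a rose at a low level, 4.98 ± 0.239 CPM in mutant against 3.60 ± 0.420 CPM in WT hearts (0.46 ± 0.13, adjusted p = 0.027), a call lost without mutant replicate 1, 3 or 4 or WT replicate 1, 3 or 4 (adjusted p up to 0.078). Its vascular relative Unc5b was at 155 ± 10.6 CPM in mutant and 177 ± 13.2 CPM in WT hearts and stood just outside the threshold (-0.19 ± 0.06, adjusted p = 0.0501). Srgap1, a GTPase-activating protein that acts below Robo receptors, rose by 0.24 ± 0.06 (adjusted p = 0.019), and lost its call without mutant replicate 2 or WT replicate 3 (adjusted p up to 0.058). Its relatives Srgap2 (-0.01 ± 0.04, adjusted p = 0.94) and Srgap3 (-0.12 ± 0.20, adjusted p = 0.78) did not pass. Rnd2, a small GTPase, rose by 0.30 ± 0.08 (adjusted p = 0.027), lost its call without mutant replicate 2 or 3 or WT replicate 1 or 4 (adjusted p up to 0.087), and 11.4% of its exon bases overlap those of Vat1 on the other strand. The vascular receptor Robo4 did not pass (0.00 ± 0.06, adjusted p = 0.997).

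Some calls of the wider list depended on the setting. Sema4g lost its call with DESeq2 (adjusted p = 0.063), limma-voom (0.067), library totals (0.069) and a fit that is not robust (0.063), Rnd2 with DESeq2 (0.058) and without the filter on low counts (0.061), and Plxna3 with limma-voom (0.054). In the set with airway RNA, Sema4g, Sema5a, Sema6a, Plxna3, Srgap1 and Rnd2 were not called (adjusted p from 0.057 for Sema5a to 0.18 for Rnd2). In the set without it, Sema4g (adjusted p = 0.14), Unc5a (0.73) and Rnd2 (0.34) were not called. With Xist as a covariate Flrt2, Plxnc1 and Sema6a kept their calls, and the other 9 did not (adjusted p from 0.072 for Ntn4 to 0.71 for Plxna3).

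**Figure D5:**
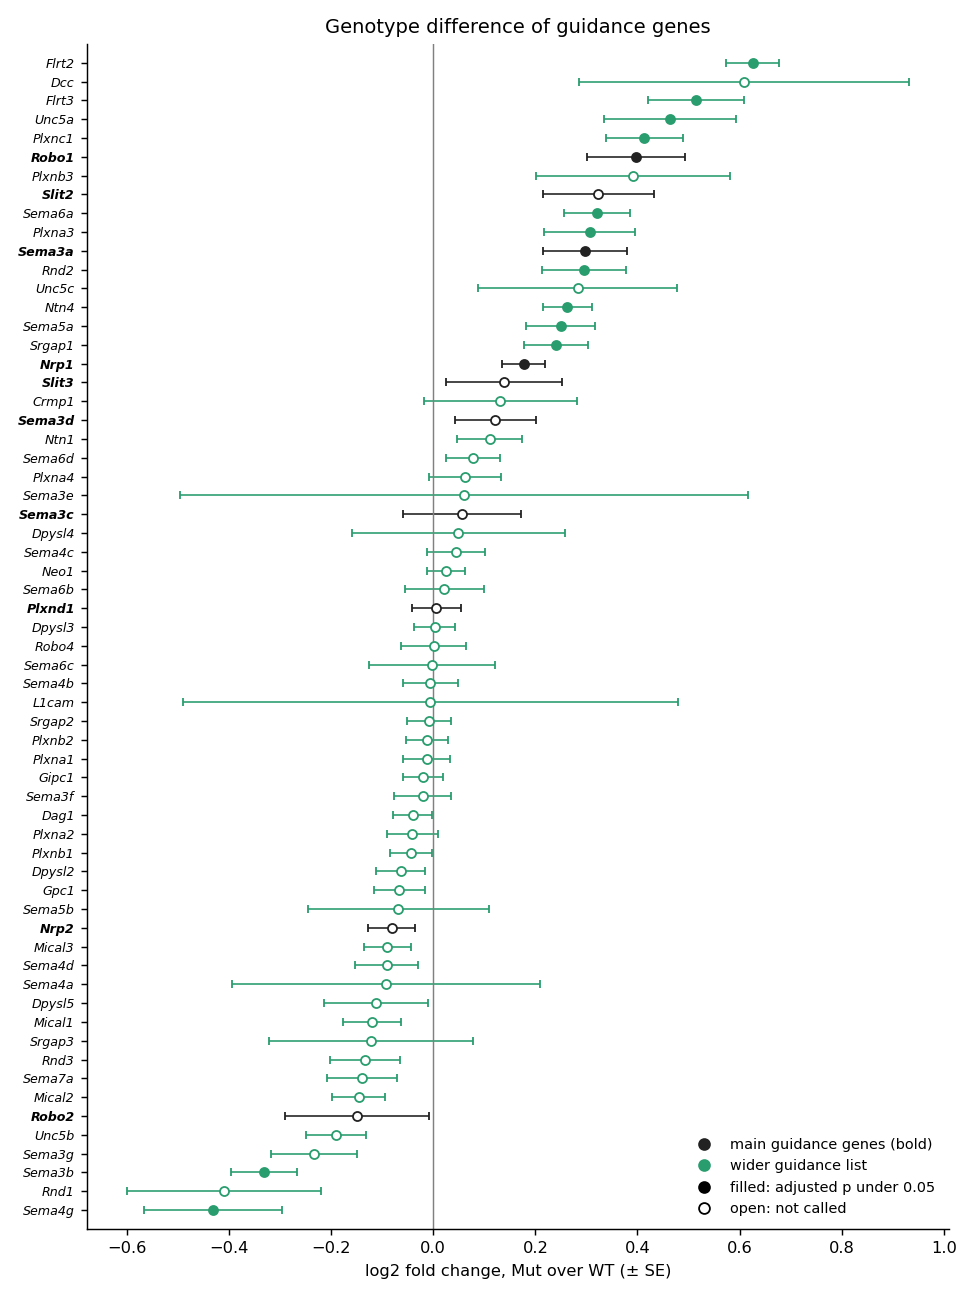
Log2 fold change of mutant over WT with its standard error for the 10 genes (black, bold names) and the 52 tested genes of the wider list (green), ordered by size; filled points have an adjusted p under 0.05 by edgeR and open points do not. Flrt2 is at the top at 0.63 and Sema4g at the bottom at -0.43.

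Over the 8 libraries, the log2 CPM of each gene, centred on its mean, was compared with that of Nrp1. Closest among genes with a full symbol were Smc1a, a subunit of cohesin (root mean square difference of 0.0159 on the log2 scale), the exonuclease gene Eri1 (0.0198) and Tmpo, which encodes a nuclear lamina protein (0.0259). They were picked from 14641 tested genes that had reads in every library and averaged 1 CPM or more. Genes without a symbol, named Gm and digits or ending in Rik are counted in the 14641 but were passed over. The 8 libraries of 2 genotypes share their scaling, and closeness over so few libraries is a description only.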

How the data were processed

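Whole hearts from 4 CHD4 M195I/M195I and 4 WT mouse embryos were profiled by RNA sequencing. Per the labels' protocols, Trizol RNA went into Illumina TruSeq RNA libraries. Trimmomatic 0.36, STAR 2.5.2b, featureCounts and Subread 1.5.2, with GRCm38 (mm10), are named in the submitters' processing notes. The authors deposited raw read counts for each gene, in a file for each library and in a joint table, and 0 values differed between them. Strand setting and annotation release: not given in the sources used here. Symbols came from GENCODE M21, and positions (GRCm38) from the count files.

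The filter was filterByExpr (minimum count 10, by genotype). Counts were scaled by TMM (factors from 1.01 to 1.03 in mutants and 0.963 to 0.993 in WT) and compared with the robust quasi-likelihood fit of edgeR 4.0.16 in R 4.3.3, genotype only, at a Benjamini-Hochberg adjusted p under 0.05. FPKM divides TMM-scaled CPM by exon length in the files. Between libraries of a genotype the chi-square per degree of freedom was 2.88 to 9.29, so none repeats another. Alternatives were DESeq2 1.42.0, limma-voom (limma 3.58.1), other scalings, filters and thresholds, each library left out, the replicate block, the sets with and without airway RNA (Scgb3a2 of at least 10 CPM) and, added after the data were seen, Xist as a covariate and the interaction with airway RNA. Named genes were the 10 members, Chd4, called genes of the wider list, and 3 genes closest to the called member with the smallest adjusted p. For these 3, genes without a symbol, named Gm and digits or ending in Rik were passed over. Robo4, Unc5b, Srgap2 and Srgap3 and the marker genes were added as relatives or for their cell type, and 1 listed marker is not reported here. The members and lists were chosen with earlier results of these data known.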

Additional observations from a re-analysis of the deposited data

How the results depend on the processing

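The log2 fold changes of Robo1, Sema3a and Nrp1 were positive under every alternative run. Scaling by library totals called 1856 genes higher, and the median log2 fold change of all genes moved to 0.05, while the 3 calls on members held. Slit2 passed as higher with DESeq2 (0.33), without a filter on low counts (0.33), with a fit that is not robust (0.32) and in the libraries with airway RNA (0.30). In the libraries with airway RNA, 609 genes were higher, 5 of the wider list were higher, Sema3a (0.27) and Nrp1 (0.14) missed the threshold, and Slit3 (-0.0095), Sema3d (-0.048) and the log2 ratio of Sema3d over Sema3c (-0.053) turned sign. In those without, 595 genes were higher and 812 lower, Slit3 (0.51) and Sema3d (0.45) passed, Sema3a (0.27) did not, and Plxnd1 (-0.048) and the log2 ratios of Slit3 over Slit2 (0.092), Sema3c over Sema3a (0.088) and Sema3d over Sema3a (0.19) turned sign. Plxnd1 was at -0.0061 with airway RNA as a term. With Xist as a covariate, at 1.25 to 1.98 CPM in every library, 107 genes were higher and 134 lower, 0 members and 3 of the wider list were higher, 0 of it were lower, and Robo1 (0.40), Sema3a (0.44) and Nrp1 (0.20) were not called. At a threshold of 0.01, 392 genes were higher and 644 lower, 0 members were called (Robo1 0.40, Sema3a 0.30, Nrp1 0.18), and 5 of the wider list were higher and 1 lower. The wider list had 1 lower gene with library totals, limma-voom or a fit that is not robust, and 4 without the filter, with airway RNA as a term or with the replicate block. The causes were not tested.

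The replicate number as a block gave 1023 genes higher and 1432 lower and kept the calls on Robo1, Sema3a and Nrp1. Same-numbered libraries of the genotypes correlated at -0.52, 0.77, 0.56 and 0.10 in their deviations, and mutant replicate 1 correlated best with WT replicate 2, so the numbers were not taken as pairs.

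With each library left out in turn, between 579 (without WT replicate 1) and 850 genes were higher, and between 1 and 4 members were higher, with 1 to 4 lower genes in the wider list. Log2 fold changes ranged from 0.24 to 0.41 for Slit2, 0.34 to 0.47 for Robo1, 0.25 to 0.34 for Sema3a, -0.048 to 0.11 for Sema3c and -0.027 to 0.034 for Plxnd1, and the log2 ratio of Sema3d over Sema3c from -0.036 to 0.14. Depth limits Robo2 most, at 103 to 166 reads per library.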
